A study of Mus musculus with 4 samples.

Results

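The enzymes that lengthen fatty acids and the enzymes that place double bonds in them were followed in mouse brown adipocytes with and without forced expression of the long noncoding RNA Blnc1. The set was defined by name, as the elongases Elovl1, Elovl3, Elovl4, Elovl5, Elovl6 and Elovl7 and the desaturases Scd1, Scd2, Fads1 and Fads2. Every probe set of the array whose platform annotation gave exactly 1 of these symbols was taken. This gave 15 probe sets for 8 of the 10 genes, of 23599 probe sets and 10926 named genes in all; Elovl4 and Scd2 had no probe set named this way and were not analysed here. Elovl3 and Elovl7 had 1 probe set, Fads2 had 3 and the other 5 genes had 2 each.

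The cells were brown adipocytes of wild type genotype, differentiated for 6 days from preadipocytes that carried either an empty vector (2 arrays) or a vector expressing Blnc1 (2 arrays). Strain, age, the type of vector and its promoter are not given in the sources used here. Total RNA (250 ng) was labelled with biotin and applied to Affymetrix PM Strip arrays of mouse probes, which are primed from the 3' end of transcripts, and the deposited values are log2 expression values. The replicates are called biological, but the labels name no separate transductions or cultures behind them, so p-values measure only the spread between these arrays, which may be technical.

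Elongases of the ELOVL family sit in the endoplasmic reticulum and catalyse the condensing, rate-limiting step that extends an acyl-CoA by a pair of carbons, each with its own preference for chain length and saturation. Stearoyl-CoA desaturases such as Scd1 make monounsaturated fatty acids such as oleate, while Fads2 and Fads1 introduce the double bonds that turn dietary linoleic and alpha-linolenic acid into long polyunsaturated fatty acids. In brown fat these enzymes shape the triglycerides and membranes of a tissue that both makes and burns fatty acids, and Elovl3 was originally cloned as a gene induced there by cold.

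Promoter windows are printed for the elongase with the largest positive difference (Elovl6), the desaturase with the largest negative one (Fads2) and an elongase whose probe sets differed least between the groups among those with a window (Elovl5). They are the 250 bases before each gene's RefSeq start in GRCm38.p6, 5' to 3' on the gene's strand; 5 of the 8 measured genes had a window in the RefSeq table. Capitals mark matches, on either strand, to CCAAT (the NF-Y box), CACGTG (the E-box read by ChREBP and USF factors) and GGGCGG (the GC box), motifs that do not overlap in these 3 windows.
Elovl6 (chr3:129532136-129532385, + strand): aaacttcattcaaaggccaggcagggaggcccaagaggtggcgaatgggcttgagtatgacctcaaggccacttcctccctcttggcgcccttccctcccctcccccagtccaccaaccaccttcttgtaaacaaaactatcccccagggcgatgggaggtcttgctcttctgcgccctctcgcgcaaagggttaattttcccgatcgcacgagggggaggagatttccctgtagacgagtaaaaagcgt
Fads2 (chr19:10101504-10101753, - strand): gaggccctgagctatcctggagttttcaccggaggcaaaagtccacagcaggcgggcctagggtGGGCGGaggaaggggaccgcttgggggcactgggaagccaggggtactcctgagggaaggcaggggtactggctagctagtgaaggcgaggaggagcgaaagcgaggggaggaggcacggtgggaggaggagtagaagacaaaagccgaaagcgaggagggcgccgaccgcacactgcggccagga
Elovl5 (chr9:77917115-77917364, + strand): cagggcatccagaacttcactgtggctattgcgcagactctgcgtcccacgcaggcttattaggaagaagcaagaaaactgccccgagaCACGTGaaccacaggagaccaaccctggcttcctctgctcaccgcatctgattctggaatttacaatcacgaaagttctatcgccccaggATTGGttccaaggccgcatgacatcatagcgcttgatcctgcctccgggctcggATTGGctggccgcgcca
The Elovl6 window held no match, the Fads2 window 1 GC box and the Elovl5 window 2 CCAAT motifs and 1 E-box. Among 32851 RefSeq windows of this length, 33.8% held CCAAT, 6.02% CACGTG and 32.7% GGGCGG. The SREBP motif TCACNCCAC, in 1.05% of windows, was in none of the 3. These matches describe letters in the window only.

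Across the series the labels could be checked on the expressed transcript. The brighter of the 2 probe sets annotated to the Blnc1 locus (C730029A08Rik) stood at 8.08 and 8.14 in the vector arrays and at 12.73 and 12.75 in the Blnc1 arrays. The dimmer one stood at 6.82 and 6.40 against 6.35 and 6.24 (log2 difference -0.31 ± 0.14 SE, limma adjusted p = 0.315); which part of the locus each reads was not analysed here. The brown fat genes Ucp1 and Cidea rose 7.99-fold and 8.71-fold (limma with Benjamini-Hochberg adjustment, adjusted p = 2.70e-04 and 4.43e-04). The cells carried adipocyte transcripts in both groups: 8 of 9 measured adipocyte markers lay above the median probe set, against 0 of 3 macrophage, 0 of 1 endothelial and 0 of 3 skeletal muscle markers. Brown adipocyte markers were higher in Blnc1 cells and none lower. An adjusted p under 0.05 (limma) was reached by 5 of 7, against 1.23% of all named genes. Their summed log2 values were 48.1 to 48.4 in vector and 58.2 to 58.6 in Blnc1 arrays. Preadipocyte and fibroblast markers all had negative differences (6 of 6, median -0.38), with sums of 37.97 to 38.1 and 36.0 to 36.2. Of these 0 passed that threshold and 4 had an unadjusted p under 0.05, against 20.7% of all named genes. For Gapdh the control probe set at the 3' end exceeded that at the 5' end by 0.41 in vector and 0.28 in Blnc1 arrays. For Actb the excess was larger, 1.51 in vector and 1.34 in Blnc1 arrays. Such an excess can reflect how intact the RNA was, among other things. All 18 hybridization controls, which read spiked-in transcripts and not the cells' RNA, were lower in the Blnc1 arrays, by a median of -0.27. These shifts separate the same groups as every result here, and their part in the results was not tested. In such bulk RNA fewer cells of a type and less RNA per cell cannot be told apart.

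None of the 15 elongase and desaturase probe sets passed the test between Blnc1 and vector cells (limma, adjusted p 0.0933 to 0.901), where 0.928% of the probe sets on the array reached an adjusted p under 0.05. At an unadjusted p under 0.05 there were 4 member probe sets, 1 of Elovl3, 1 of Elovl6 and 2 of Fads2, against 18.9% of all probe sets. All estimates were below 1.5-fold in either direction, between -0.38 and 0.29 on the log2 scale (Blnc1 minus vector), with standard errors of 0.075 to 0.13. For 13 of 15 probe sets the 95% interval of the difference lay within 1.5-fold in either direction, as it did for 89.6% of all probe sets, and for all 15 it lay within 2-fold. The 2 probe sets with an interval past 1.5-fold were the dimmer ones of Fads2. With a variance prior that follows the expression level, 2 member probe sets passed, those of Elovl3 and the brightest of Fads2, where 9.21% of all probe sets passed in that fit. Fitted with the replicate number as a block, or without moderation of variances, 0 passed, and 3 had an unadjusted p under 0.05 in each of these fits.

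**Figure D1:**
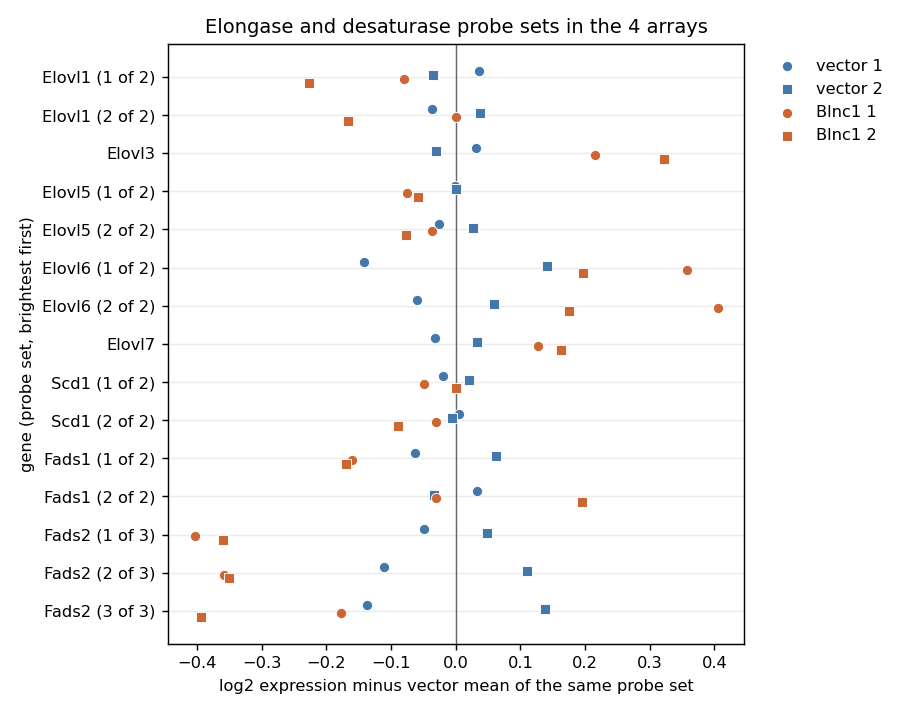
Log2 expression of each elongase and desaturase probe set (rows, brightest first within a gene) in the 4 arrays, drawn relative to the vector mean of the same probe set. Points are single arrays, blue for vector and orange for Blnc1, set slightly apart in height so that none is hidden. Both Blnc1 arrays lie to the right of both vector arrays for Elovl3, Elovl6 and Elovl7 and to the left for all 3 Fads2 probe sets.

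The differences across the arrays went in both directions. The Blnc1 arrays lay on one side of the vector arrays for 12 of 15 probe sets, against 50.4% of all probe sets. They were above for 4 (26.4% of all probe sets) and below for 8 (24.0%). With 1 probe set per gene, the brightest, 7 of 8 genes did not overlap, against 53.2% of all genes. Most members were bright, and the shares over all probe sets and genes were not matched for level. The median log2 difference of the 8 genes was -0.046, against 0.0073 for all 10926 genes, and their median absolute difference 0.16, against 0.11. A difference of at least 1.2-fold in either direction was found in 3 of the 8, Elovl3, Elovl6 and Fads2, against 15.9% of all genes.

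Among the elongases of saturated and monounsaturated chains, Elovl3, which extends them to very long chains, stood at 10.05 and 9.99 in the vector arrays and at 10.24 and 10.34 in the Blnc1 arrays. Both Blnc1 arrays were thus above both vector arrays, by a gap of 0.19 against differences of 0.062 and 0.11 between replicates. The estimate was a 1.20-fold higher level (log2 difference 0.27 ± 0.083 SE, 95% interval 1.05-fold to 1.39-fold, limma adjusted p = 0.173). For comparison, the intervals of Ucp1 (6.996-fold to 9.11-fold) and Cidea (7.42-fold to 10.2-fold) lay far above that of Elovl3. Under the level-dependent prior Elovl3 passed with an adjusted p of 0.00741, and over its 14 alternatives the adjusted p ranged up to 0.479 while the difference kept its direction.

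Elovl6, which extends palmitate to stearate and so feeds Scd1, was read by 2 probe sets with nearly the same result. The brighter one stood at 7.68 and 7.96 in vector and at 8.18 and 8.02 in Blnc1 cells, and the dimmer one at 6.49 and 6.60 against 6.95 and 6.72. On both, Blnc1 replicate 2 lay close above vector replicate 2, with gaps of 0.056 and 0.12 between the groups, while vector replicate 1 was the lowest and Blnc1 replicate 1 the highest array. The brighter probe set was 1.21-fold higher (log2 difference 0.28 ± 0.12 SE, limma adjusted p = 0.289) and the dimmer one 1.22-fold (0.29 ± 0.11 SE, limma adjusted p = 0.220). The differences between replicates were as large as 0.28 and 0.23, so the estimate depended on single arrays: on the brighter probe set it was 0.14 without vector replicate 1 and 0.42 without vector replicate 2, and on the dimmer one 0.17 without Blnc1 replicate 1.

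Elovl7, another long-chain elongase, was dim, with 4.88 and 4.95 in vector and 5.04 and 5.08 in Blnc1 arrays, below the array medians of 5.98 to 6.04. The Blnc1 arrays were higher by 0.15 ± 0.078 SE (limma adjusted p = 0.381). Readings this low are compressed by background, and a change there can be understated.

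Elovl1, which builds saturated and monounsaturated very-long-chain fatty acids for sphingolipids, had values of 8.01, 7.94 (vector), 7.89 and 7.75 (Blnc1) on its brighter probe set. This probe set carries the suffix for possible cross-hybridisation. The groups were separated by only 0.045, and the difference was -0.15 ± 0.088 SE (limma adjusted p = 0.412). On the dimmer probe set the groups overlapped, with 6.94 and 7.01 in vector and 6.98 and 6.81 in Blnc1 arrays (-0.083 ± 0.092 SE).

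Elovl5, the elongase of polyunsaturated chains that acts between Fads2 and Fads1, was bright and steady. Its brighter probe set, also marked for possible cross-hybridisation, gave 10.83 in both vector arrays and 10.76 and 10.77 in the Blnc1 arrays. The other gave 10.52 and 10.57 against 10.50 and 10.46. Both probe sets put Blnc1 slightly below vector, by -0.067 ± 0.075 and -0.057 ± 0.077 (SE, limma adjusted p = 0.687 and 0.749). The intervals reached at most 1.19-fold lower and 1.10-fold higher levels in Blnc1 cells.

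Scd1, the desaturase that makes oleate from the stearate supplied by Elovl6, differed little between the groups. Its brighter probe set read 13.23 and 13.27 in vector and 13.20 and 13.25 in Blnc1 arrays, close to the highest value of any array, where a further rise would hardly be read. The dimmer probe set lay well below that ceiling, at 10.66 and 10.65 in vector and 10.62 and 10.56 in Blnc1 arrays. Its difference was -0.06 ± 0.077 SE (limma adjusted p = 0.730), with an interval from 1.19-fold lower to 1.09-fold higher levels in Blnc1 cells. On the brighter probe set the difference was -0.025 ± 0.077 SE and the groups overlapped.

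Fads2, the desaturase that opens the polyunsaturated pathway, had the largest difference among the members, and its 3 probe sets pointed the same way. The brightest stood at 8.75 and 8.85 in vector and at 8.40 and 8.44 in Blnc1 arrays, and the second at 6.91 and 7.13 against 6.66 and 6.67. The dimmest, marked for possible cross-hybridisation, stood at 5.05 and 5.33 against 5.01 and 4.80. The Blnc1 arrays were below the vector arrays on all 3, with gaps of 0.31, 0.24 and 0.039. The brightest probe set was 1.30-fold lower in Blnc1 cells (log2 difference -0.38 ± 0.081 SE, 95% interval 1.14-fold to 1.50-fold lower, limma adjusted p = 0.0933). The other two were 1.28-fold and 1.22-fold lower (limma adjusted p = 0.147 and 0.298). The brightest passed with the level-dependent prior (adjusted p = 0.00480) and when only probe sets at or above the median level were tested (adjusted p = 0.0311); over its 14 alternatives the adjusted p ranged up to 0.318 and the difference from -0.43 to -0.33.

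Fads1, which acts after Fads2 and Elovl5 to give arachidonic and eicosapentaenoic acid, was the only gene whose probe sets had opposite signs. The brighter one stood at 8.65 and 8.77 in vector and 8.55 and 8.54 in Blnc1 arrays, a difference of -0.16 ± 0.083 SE (limma adjusted p = 0.354). The dimmer one stood at 5.52 and 5.45 against 5.45 and 5.68, so its groups overlapped (0.083 ± 0.10 SE, limma adjusted p = 0.718).

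**Figure D2:**
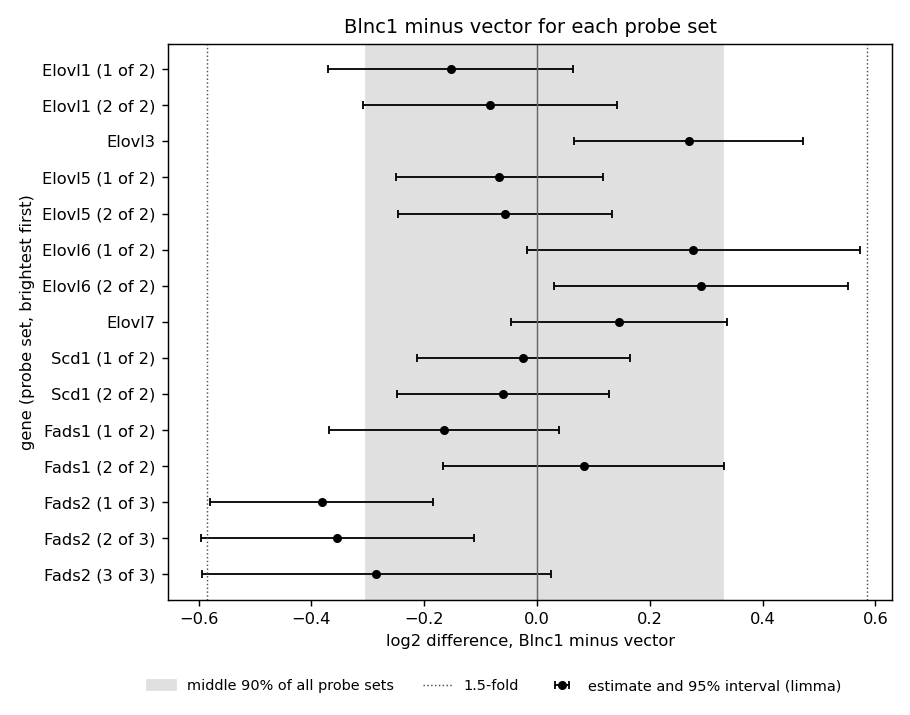
Log2 difference between Blnc1 and vector for each elongase and desaturase probe set, with points for the estimate and bars for its 95% interval from limma (2 arrays per group). The grey band holds the middle 90% of all probe sets, from -0.30 to 0.33, and the dotted lines mark 1.5-fold; the bars of Elovl3, the dimmer Elovl6 probe set and the 2 brighter Fads2 probe sets do not cross 0.

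In the reference gene table Fads3, Fads2 and Fads1 follow each other, with only a long noncoding RNA gene (Gm29917) and a pseudogene (Gm50359) between them. Fads3, a desaturase-like gene of sphingoid bases that was not in the set, stood at 7.93 and 8.08 in vector and at 8.47 and 8.68 in Blnc1 arrays. This was 1.48-fold higher (log2 difference 0.57 ± 0.11 SE, limma adjusted p = 0.0770), and its second probe set stood at 0.41 ± 0.12 SE (0.26 without vector replicate 1). Neither passed; both passed with the level-dependent prior (adjusted p = 0.00214 and 0.0281), and over the alternatives of the brighter one the adjusted p ranged up to 0.364. Degs1, the dihydroceramide desaturase and the other measured relative outside the set, stood at -0.25 ± 0.078 SE (limma adjusted p = 0.172). The 3 neighbours thus gave log2 differences of 0.57, -0.38 and -0.16 on their brightest probe sets, and the differences between these genes were not tested.

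Genes around the elongases and desaturases were read from 8 lists with 56 measured genes, 1 probe set each. Of these 2 rose and 1 fell (limma, adjusted p under 0.05), against 1.23% of all named genes in either direction, 0.860% higher and 0.366% lower. The median log2 difference of the 56 genes was -0.073, with 22 positive and 34 negative. Over all named genes 5641 were positive and 5285 negative. An unadjusted p under 0.05 (limma) was reached by 18 of the 56, against 20.7% of all named genes. Under the level-dependent prior 17 of the 56 passed, where 11.3% of all named genes did, among them the genes named here except Cyb5r1, Mid1ip1, Nr1h3 and Ehhadh.

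The partner enzymes of the elongation cycle, which reduce and dehydrate the product of the elongases, had 5 measured genes, 4 of them negative and none past the threshold (median -0.072). An unadjusted p under 0.05 was reached by 3 of them; over all named genes this share was 20.7%, to be set beside the counts in each list here. Hsd17b12, the ketoacyl-CoA reductase, stood at 11.71 and 11.74 in vector and 11.46 and 11.43 in Blnc1 arrays (-0.28 ± 0.076 SE, limma adjusted p = 0.136). Hacd1, a dehydratase prominent in muscle, differed the other way, at 9.93 and 9.87 against 10.13 and 10.21 (0.27 ± 0.080 SE, limma adjusted p = 0.162). Both passed with the level-dependent prior (adjusted p = 4.20e-04 and 0.00649) and reached 0.410 and 0.467 under other alternatives. The list of cytochrome b5 and cytochrome b5 reductase genes, which includes the donors of electrons to the desaturases, had 5 measured genes, 3 of them negative. None was past the threshold (median -0.11, 1 with an unadjusted p under 0.05). The outer mitochondrial cytochrome b5 gene Cyb5b stood at -0.22 ± 0.078 SE, with smaller differences of -0.17 and -0.087 on its further probe sets. The reductase gene Cyb5r1 stood at 0.18 ± 0.099 SE, and at 0.083 without vector replicate 1 and 0.11 without Blnc1 replicate 2.

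The supply of fatty acids, from citrate export to fatty acid synthase, had 10 measured genes, 8 of them negative and none past the threshold (median -0.11, 1 with an unadjusted p under 0.05). The exception in size was Acacb, the acetyl-CoA carboxylase isoform that restrains mitochondrial fatty acid entry, at 9.04 in both vector arrays and 9.50 and 9.41 in Blnc1 arrays (0.41 ± 0.079 SE, limma adjusted p = 0.0807; 0.00135 with the level-dependent prior, up to 0.293 otherwise). Mid1ip1, an activator of acetyl-CoA carboxylase, stood at -0.24 ± 0.11 SE, and at -0.12 without vector replicate 2. Fasn, which makes the palmitate that Elovl6 extends, stood at -0.13 ± 0.076 SE; it was chosen for its place in the pathway after its value was seen.

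Of 13 listed regulators 11 were measured, as Srebf1 and Nr1h2 had no probe set named to them alone. Of the 11 measured, 7 were negative (median -0.075, 2 with an unadjusted p under 0.05) and 1 rose. This was Ppara, a nuclear receptor of fatty acid oxidation genes that also controls several desaturases and elongases in liver. It stood at 7.48 and 7.29 in vector and 8.14 and 8.09 in Blnc1 arrays, a 1.66-fold rise (log2 difference 0.73 ± 0.095 SE, limma adjusted p = 0.0434). The differences on the other 2 Ppara probe sets were 1.01 and 0.87, and both passed (limma adjusted p = 0.0289 and 0.0280). All 3 calls were lost without any 1 of the 4 arrays (adjusted p 0.0804 to 0.163 on the brightest probe set, 0.0503 to 0.131 on the others) and with the replicate block (0.0819, 0.0632 and 0.0783), and that of the brightest also after repeated quantile normalization (0.0524). Nr1h3, the liver X receptor alpha, stood at -0.21 ± 0.083 SE (limma adjusted p = 0.250).

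Among the long-chain acyl-CoA synthetases, which activate fatty acids for elongation, 4 of 5 were positive and none passed (median 0.078, 2 with an unadjusted p under 0.05). Acsl4, which prefers arachidonic acid, stood at 0.39 ± 0.11 SE and Acsl5 at 0.32 ± 0.084 SE (limma adjusted p = 0.145 and 0.133). Of 7 genes of very-long-chain breakdown 3 had an unadjusted p under 0.05 and 1 fell. The latter was the peroxisomal transporter gene Abcd2, at 4.34 and 4.38 in vector and 3.70 and 3.42 in Blnc1 arrays (-0.80 ± 0.11 SE, limma adjusted p = 0.0460). It was read near the floor of the arrays, with differences of -0.23 and -0.075 on the 2 further Abcd2 probe sets. Ehhadh, the peroxisomal bifunctional enzyme, stood at 0.30 ± 0.11 SE, and at 0.18 without vector replicate 2.

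Genes that use elongated and desaturated chains, the ceramide synthases and lysophospholipid acyltransferases, had 11 measured members (median -0.0011, 4 with an unadjusted p under 0.05). Only Mboat1, a lysophospholipid acyltransferase that prefers oleoyl chains, passed: it rose 1.69-fold from 4.36 and 4.31 to 4.96 and 5.22 (log2 difference 0.76 ± 0.11 SE, limma adjusted p = 0.0479), on a dim probe set. Agpat3 stood at 0.35 ± 0.085 SE and did not pass (limma adjusted p = 0.118). The calls of Abcd2 and Mboat1 were each lost without any 1 of the 4 arrays (adjusted p 0.0862 to 0.159 and 0.0908 to 0.159) and after repeated quantile normalization (0.0527 and 0.0584), with the robust prior (0.0510 and 0.0519) and with the replicate block (0.0922 and 0.0955), and that of Mboat1 also with the arrays centred on their median (0.0520). Without moderation of the variances the calls of Ppara, Abcd2 and Mboat1 were all lost (0.311, 0.327 and 0.326).

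**Figure D3:**
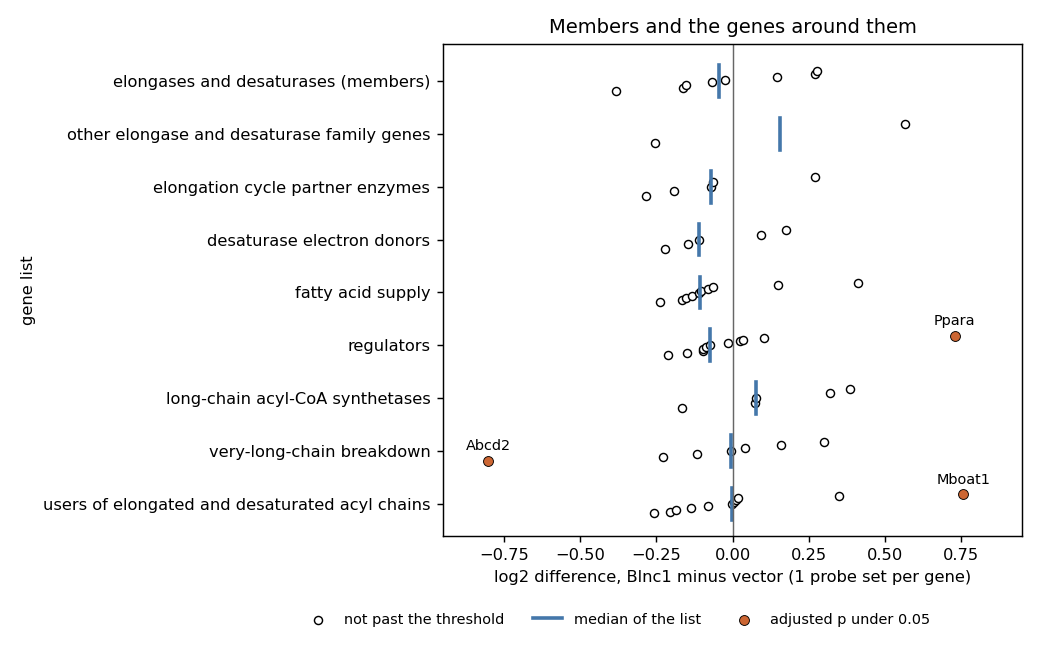
Log2 difference between Blnc1 and vector, 1 probe set per gene, for the 8 measured elongases and desaturases and for the 8 lists around them (rows). Open circles did not pass the test, filled circles passed an adjusted p of 0.05 (Ppara, Mboat1 and Abcd2), and blue bars are list medians; the members lie between -0.38 and 0.28 around a median of -0.046.

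Genes with the most similar profile were sought by the distance between the 4 array values, each gene centred on its own mean. Nearest to Elovl3, the member with the smallest p among positive differences, was Hacd1, followed by Prtn3 and Nectin1, at distances of 0.019, 0.026 and 0.028 log2 units. Nearest to Fads2 were Sc5d, Krba1 and Fap, at 0.016, 0.024 and 0.032. Prtn3, Krba1 and Fap were read near the floor of the arrays, with means of 3.92, 4.09 and 3.67. With 4 arrays in 2 groups such profiles are fixed largely by the size of the group difference. The log2 differences of the nearest genes were accordingly 0.27, 0.26 and 0.27 beside Elovl3 and -0.37, -0.37 and -0.38 beside Fads2.

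**Figure D4:**
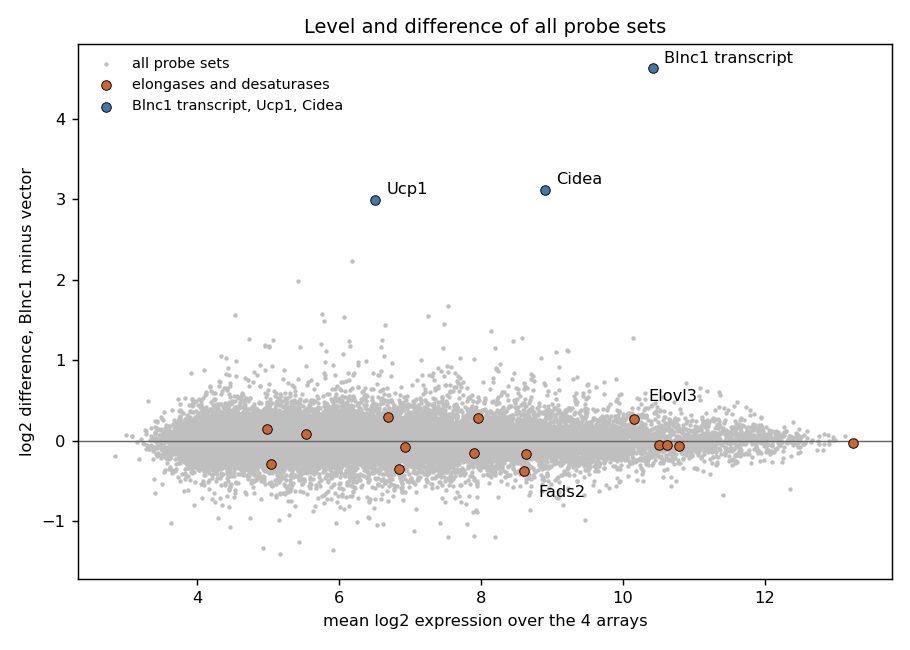
Mean log2 expression over the 4 arrays (horizontal) against the log2 difference between Blnc1 and vector (vertical) for all 23599 probe sets in grey. The 15 elongase and desaturase probe sets (orange) lie between -0.38 and 0.29, while the Blnc1 transcript, Cidea and Ucp1 (blue) stand at 4.63, 3.12 and 2.997.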

How the data were processed

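Log2 expression values of each probe set on each array were deposited by the authors; per the submitters' processing notes the authors used RMA, affy and limma, with versions, settings and genome build not given in the sources used here. Of 23634 rows 35 control probe sets were left out. Probe sets were named from the platform annotation; all 15 member probe sets matched the reference gene table (GRCm38.p6) by Entrez ID and symbol.

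Groups and replicate numbers came from the sample titles. Blnc1 was compared with vector over all 23599 probe sets by limma 3.58.1 in R 4.3.3 (lmFit, eBayes, two-sided, no covariate, no filter) with Benjamini-Hochberg adjustment and a threshold of 0.05; intervals are unadjusted 95% intervals. The level-dependent prior is eBayes with a trend. Where a gene needed 1 probe set, that with the highest mean over all 4 arrays was used. The fit was also run on simulated data with independent errors drawn from its own fitted prior, which checks the code and not the design. The number of arrays limits the precision, and RMA compresses differences of dim probe sets. The members and lists were chosen with earlier results of these data known. Named genes were all members, in each list the 2 genes with the smallest p and any past the threshold, and the 3 nearest profiles of 2 members. Alternatives covered scaling, filters, variance priors, the replicate block, the threshold and single arrays left out. A further fit left out probe sets with the suffix s, x or a.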

Additional observations from a re-analysis of the deposited data

How the results depend on the processing

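No member probe set passed in the main fit, and the number was 1 at a threshold of 0.10, 1 among probe sets at or above the median level and 2 with the level-dependent prior, and 0 in the other fits. Over all probe sets 219 passed; the number was 334 among probe sets at or above the lower quartile of levels, 1021 among those at or above the median level, 2174 with the level-dependent prior, 958 at a threshold of 0.10, 0 without moderation (3204 at an unadjusted p under 0.05) and 3 to 38 when 1 array was left out. Centring the arrays on their medians gave 176 higher of 311, against 147 of 219. With the replicate number as a block 30 passed. Same-numbered arrays shared deviations with a correlation of 0.089 over probe sets, a single value that cannot decide whether the numbers are pairs. The main fit was planned without a block. Genes of the lists around the members passed in number 3, and 0 after repeated quantile normalization, with the replicate block and without moderation (18 and 19 at an unadjusted p under 0.05 in the latter 2), 1 with a robust prior or at or above the lower quartile, 6 at or above the median level, 5 at 0.10, 17 with the level-dependent prior and 0 without any 1 array. The median difference of the members was -0.062 after median centring and -0.063 to -0.029 when 1 array was left out. It was -0.067 at or above the median level, where Elovl7 dropped out. Without probe sets of the suffix s, x or a it was -0.025. In that fit Elovl1 dropped out and Elovl5 was read by its other probe set. Of 203 member values under alternatives 199 kept their direction and 1, the brighter Scd1 probe set after repeated quantile normalization, was 0 (within 1e-06); those that turned were the brighter Scd1 probe set (-0.050 to 1.2e-04 with 1 array left out), the dimmer Elovl1 one (-0.17 to 0.0011) and the dimmer Fads1 one (-0.031 to 0.196). The causes of these changes were not tested. Fits that left out arrays or probe sets also held fewer of them.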
